A study of Homo sapiens with 9 samples.

Results

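The TRAF adaptors and the inhibitors of apoptosis are described here in HEK293A cells labelled p65 knockout, with and without p65 from a plasmid. HEK293A is a flat-growing derivative of the human embryonic kidney line HEK293. Of the 58735 genes in the deposited table, 10 were taken by symbol: the adaptors TRAF1 to TRAF7 (7 genes) and the inhibitors BIRC2, BIRC3 and XIAP (3 genes). All 10 had enough reads to be tested.

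TRAF proteins act downstream of TNF receptors and Toll-like receptors and pass the signal on to kinases. Most TRAFs carry a RING finger, the domain of many ubiquitin ligases, whereas TRAF1 lacks one. BIRC2 (cIAP1) and BIRC3 (cIAP2) are ubiquitin ligases that TRAF2 brings to the TNF receptor, where they modify RIPK1 and restrain caspase-8. XIAP blocks caspases directly. TRAF1 and BIRC3 are textbook NF-kB targets, so that the pathway renews some of the proteins that carry its own signal.

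All 9 libraries came from cells labelled p65 knockout, that received a plasmid 24 h before TNFα (20 ng/mL for 2 h): the vector, p65 WT or p65 2CS, each in 3 libraries. The series title names p65 palmitoylation as its subject, and the meaning of 2CS is not spelled out in the labels. The p65 came from a plasmid on top of the knockout, and no library without TNF was included, so each group serves as a model of TNF-treated cells only. The labels name neither a clone nor separate cultures, so the p-values may measure technical spread alone.

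The total count per library lay between 15989601 and 25068515. RELA, the gene of p65, stood at 67.7 ± 1.61 CPM (counts scaled by library size, mean ± SD, n = 3) in the vector group, at 9003 ± 943 CPM in the p65 WT group and at 25518 ± 1382 CPM in the p65 2CS group, a 2.83-fold difference between the forms (edgeR adjusted p = 1.4e-30). The form of p65 and the RELA level thus differ together in every comparison of the forms below, and their separate parts were not tested. With 1192 to 1410 RELA counts in each vector library, the knockout is not visible in these counts and rests on the labels. All 9 nephron, neural and keratin markers chosen for HEK293 had reads in every group, and their summed level did not overlap between groups, at 2207 to 2221 CPM in vector, 2069 to 2129 CPM in p65 WT and 1948 to 2014 CPM in p65 2CS libraries. Most of that sum came from KRT8 (942 CPM in the vector group) and NEFL (899 CPM). KRT8 gave no call with p65 WT (edgeR adjusted p = 0.406) and was lower with p65 2CS (edgeR adjusted p = 2.39e-07). NEFL was lower with both forms (edgeR adjusted p = 0.00218 with p65 WT and 0.00011 with p65 2CS). Of the 9 markers, 5 fell with p65 WT, against 12.5% of all genes tested, and 1, NEFM, rose (6.97-fold), against 16.4%. With p65 2CS 4 fell, against 11.4%. The 7 leukocyte markers summed to 1.05 to 1.32, 2.15 to 3.59 and 1.90 to 2.46 CPM in the same order, with PTPRC at 0 in every vector and p65 WT library and CD3E in every vector library. ITGAM, the only leukocyte marker with enough reads to be tested, rose with both forms (5.27-fold and 3.46-fold). The 5 fibroblast markers summed to 0.832 to 1.65, 1.64 to 3.09 and 1.21 to 1.86 CPM, with DCN at 0 in every vector and p65 2CS library and THY1 in every vector library. The 6 endothelial markers summed to 8.59 to 9.29, 50.2 to 61.4 and 12.4 to 15.4 CPM. CDH5, VWF and CLDN5, 3 of the 4 tested, rose with both forms, against 16.4% (p65 WT) and 12.1% (p65 2CS) of all genes tested. Each endothelial marker had reads in every group, although CDH5 was at 0 in vector replicates 1 and 3 and PECAM1 in vector replicate 3 and p65 2CS replicates 7 and 9. Their part in the results below was not tested. In bulk RNA, fewer cells expressing a gene and less RNA per cell cannot be told apart.

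With p65 WT in place of vector, 3 genes stood out: TRAF1 was 14.4-fold higher, BIRC3 6.63-fold and BIRC2 1.7-fold. TRAF3 (1.17-fold) and TRAF7 (1.07-fold) rose less, and TRAF4 fell. Of the 10 genes 5 rose, against 16.4% of all 18195 genes tested, and 1 fell, against 12.5%. TRAF2, TRAF5, TRAF6 and XIAP did not pass the threshold (edgeR quasi-likelihood test with Benjamini-Hochberg adjustment over all genes tested, threshold 0.05).

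**Figure D1:**
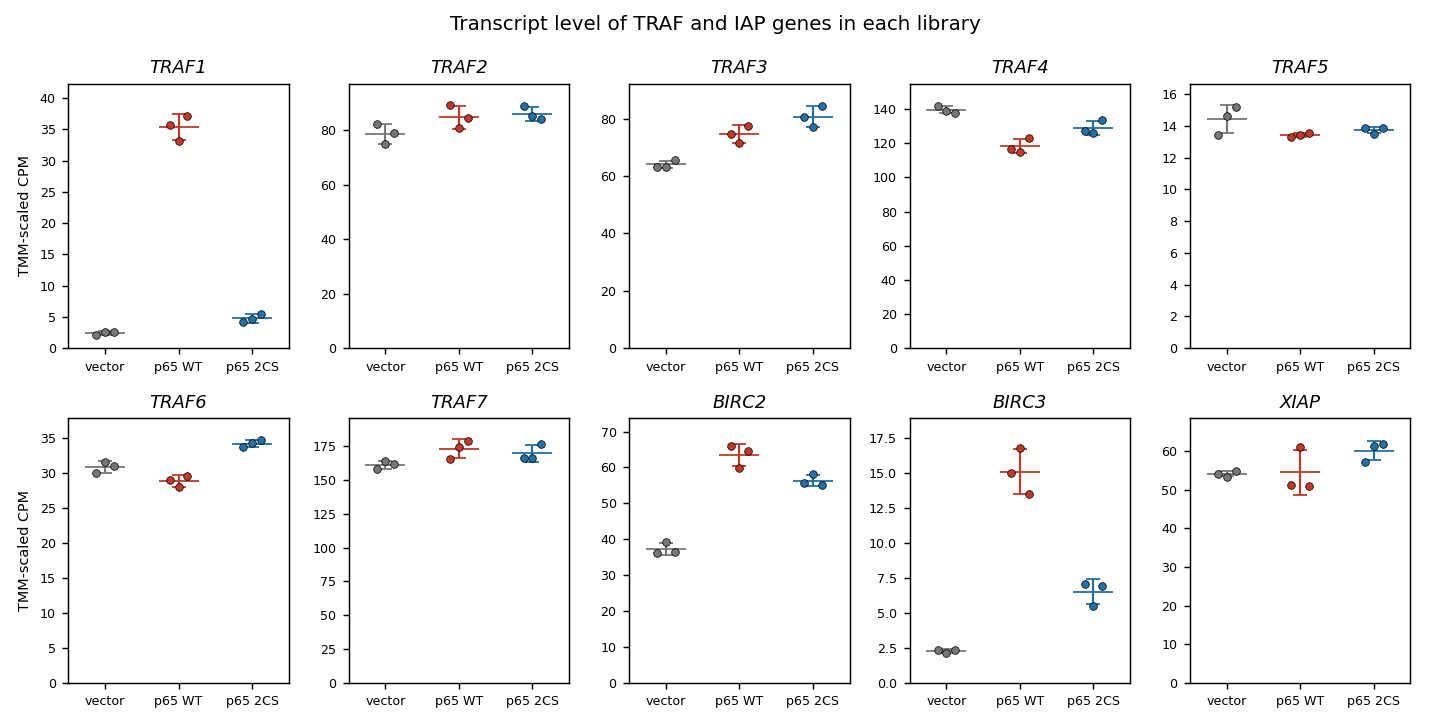
TMM-scaled CPM of each of the 10 genes in each library (points), with mean and SD (bars), for vector (grey), p65 WT (red) and p65 2CS (blue), 3 libraries each; every axis starts at 0. TRAF1 and BIRC3 lie highest in the 3 p65 WT libraries with no overlap between groups, and TRAF5 lies between 13.3 and 15.2 CPM in all 9.

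TRAF1 (ENSG00000056558, chromosome 9, 120902393 to 120929173 GRCh38, minus strand) is an adaptor that pairs with TRAF2. The vector libraries had 2.13, 2.59 and 2.60 CPM, those of p65 WT 35.8, 33.2 and 37.2 CPM, and those of p65 2CS 4.13, 4.65 and 5.53 CPM. The 3 groups did not overlap. The log2 fold against vector was 3.85 ± 0.12 (standard error) with p65 WT (edgeR adjusted p = 1.45e-27) and 0.96 ± 0.15 with p65 2CS (edgeR adjusted p = 5.19e-06). Between the forms TRAF1 was 7.4-fold lower with p65 2CS, a log2 fold of -2.89 ± 0.10 (edgeR adjusted p = 7.48e-25). Above the vector mean, p65 2CS added 2.33 CPM and p65 WT 33.0 CPM, or 7.07% of the p65 WT gain, both gains being counted from the same vector libraries.

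BIRC3 (ENSG00000023445, chromosome 11, 102317450 to 102339403, plus strand) is the inducible cIAP. Its level was 2.35, 2.10 and 2.38 CPM with vector, 15.0, 16.8 and 13.5 CPM with p65 WT, and 7.10, 5.48 and 6.96 CPM with p65 2CS. Again no 2 groups overlapped. The log2 fold against vector was 2.73 ± 0.15 with p65 WT (edgeR adjusted p = 8.34e-19) and 1.504 ± 0.16 with p65 2CS (edgeR adjusted p = 1.78e-09). Between the forms BIRC3 was 2.34-fold lower with p65 2CS (edgeR adjusted p = 2.56e-10), whose gain over vector was 33.0% of that with p65 WT.

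BIRC2 (ENSG00000110330, chromosome 11, 102347211 to 102378670, plus strand) is the paralog of BIRC3 and its neighbour on the same strand, with 7807 bases between the 2 genes. BIRC2 stood at 36.1, 39.3 and 36.5 CPM with vector, 65.9, 59.9 and 64.7 CPM with p65 WT, and 55.7, 58.2 and 55.2 CPM with p65 2CS. Every p65 library lay above every vector library, and the p65 2CS libraries lay just below the p65 WT libraries. The log2 fold was 0.76 ± 0.05 with p65 WT (edgeR adjusted p = 4.16e-15) and 0.59 ± 0.05 with p65 2CS (edgeR adjusted p = 2.29e-11). The difference between the forms was -0.17 ± 0.05 (edgeR adjusted p = 0.0102). Leaving out p65 WT replicate 4 ended that call (edgeR adjusted p = 0.0648). With p65 2CS the gain over vector was 72.7% of the gain with p65 WT.

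TRAF1, BIRC3 and BIRC2 thus separated by how much of the p65 WT level p65 2CS gave, with log2 differences between the forms of -2.89, -1.23 and -0.17 and standard errors of 0.10, 0.13 and 0.05. The promoters of these 3 genes are shown because the binding site of NF-kB is a known sequence. RefSeq start sites (build GRCh38.p14) matched all 10 genes, with 17 windows of 300 bases, each from 250 bases before to 50 bases after a start. Windows were searched on both strands for the NF-kB decamer consensus, which 5.91% of all 35116 windows held. They were also searched for a relaxed NF-kB decamer, which 14% held and which by its letters takes in every consensus match. Capitals mark matches to either decamer, and each window reads 5′ to 3′ along its gene.
BIRC3, chr11:102317234-102317533, plus strand: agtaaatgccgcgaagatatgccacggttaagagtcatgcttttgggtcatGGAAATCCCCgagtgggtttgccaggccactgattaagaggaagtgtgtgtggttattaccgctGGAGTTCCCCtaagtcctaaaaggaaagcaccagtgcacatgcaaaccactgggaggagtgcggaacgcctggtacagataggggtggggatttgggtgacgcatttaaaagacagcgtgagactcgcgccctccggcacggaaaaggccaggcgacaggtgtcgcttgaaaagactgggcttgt
BIRC2, chr11:102346964-102347263, plus strand: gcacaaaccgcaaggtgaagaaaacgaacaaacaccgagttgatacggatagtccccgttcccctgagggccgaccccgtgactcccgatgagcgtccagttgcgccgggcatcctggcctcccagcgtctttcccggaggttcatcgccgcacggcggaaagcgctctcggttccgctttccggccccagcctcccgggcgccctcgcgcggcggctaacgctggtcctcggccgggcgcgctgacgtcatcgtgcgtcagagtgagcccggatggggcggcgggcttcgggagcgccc
TRAF1, chr9:120929122-120929421, minus strand: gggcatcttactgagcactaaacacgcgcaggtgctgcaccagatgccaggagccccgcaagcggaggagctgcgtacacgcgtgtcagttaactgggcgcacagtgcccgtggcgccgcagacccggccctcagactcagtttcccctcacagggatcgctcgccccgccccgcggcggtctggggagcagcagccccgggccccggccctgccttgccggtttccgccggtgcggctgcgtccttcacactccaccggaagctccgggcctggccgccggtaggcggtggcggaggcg

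The BIRC3 window held 2 matches to the consensus, and so to the relaxed decamer, GGAAATCCCC beginning 199 bases before the start and GGAGTTCCCC beginning 135 bases before it. Among the windows of the other genes only that of TRAF3 held a match, GGGGATTTCC beginning 33 bases before the start (chr14:102777416-102777425, plus strand). No match was found in the 3 windows of TRAF1 or the 2 windows of BIRC2, which says only that these letters are not in those windows. The half-site GGAAA, or TTTCC on the other strand, occurred in the printed windows of all 3 genes and in 61.2% of all windows.

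TRAF3 (ENSG00000131323, chromosome 14, 102777476 to 102911500, plus strand) degrades the kinase NIK in resting cells together with TRAF2 and the cIAPs. TRAF3 stood at 63.3, 63.3 and 65.7 CPM with vector, 74.8, 71.5 and 77.6 CPM with p65 WT, and 80.6, 77.1 and 84.4 CPM with p65 2CS. Both p65 groups lay above vector, and they overlapped each other. The log2 fold was 0.22 ± 0.05 with p65 WT (edgeR adjusted p = 0.000243) and 0.33 ± 0.05 with p65 2CS (edgeR adjusted p = 3.82e-07). The forms differed by 0.11 ± 0.05 (edgeR adjusted p = 0.0619), with the mean higher for p65 2CS, a difference that passed the threshold without p65 WT replicate 6 or p65 2CS replicate 8, or when only library totals set the scale. The gain over vector with p65 2CS was 157% of that with p65 WT.

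TRAF4 (ENSG00000076604, chromosome 17, 28743984 to 28750958, plus strand), an adaptor better known from cell polarity and morphogenesis than from immune receptors, moved downward. Its level was 142, 139 and 138 CPM with vector, 117, 115 and 123 CPM with p65 WT, and 127, 126 and 134 CPM with p65 2CS. The groups formed 3 separate bands, with vector highest and p65 WT lowest. TRAF4 fell by 0.24 ± 0.04 on the log2 scale with p65 WT (edgeR adjusted p = 1e-06), was higher with p65 2CS than with p65 WT (log2 fold 0.13 ± 0.04, edgeR adjusted p = 0.00614), and was lower than vector with p65 2CS (log2 fold -0.11 ± 0.04, edgeR adjusted p = 0.0154). The last call was lost without vector replicate 1, p65 2CS replicate 7 or p65 2CS replicate 8. Of the distinct 50-base windows in TRAF4 transcripts 14.3% also occurred in transcripts of other genes, most of them in antisense genes. Of these antisense genes AC010761.4 had 4 to 10 counts per library and AC010761.5 had 0 in every library.

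TRAF6 (ENSG00000175104, chromosome 11, 36487027 to 36510272, minus strand) is the ligase of the Toll-like and interleukin-1 receptor route. TRAF6 stood at 29.9, 31.6 and 31.0 CPM with vector, 28.96, 27.9 and 29.6 CPM with p65 WT, and 33.7, 34.2 and 34.6 CPM with p65 2CS. The p65 2CS libraries lay above all others and the p65 WT libraries below all others. The forms differed by 0.25 ± 0.06 on the log2 scale, higher with p65 2CS (edgeR adjusted p = 0.0023). Neither form passed the threshold against vector, with log2 folds of -0.10 ± 0.06 for p65 WT (edgeR adjusted p = 0.278) and 0.15 ± 0.06 for p65 2CS (edgeR adjusted p = 0.0785).

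TRAF2 (ENSG00000127191, chromosome 9, 136881912 to 136926607, plus strand), which carries the cIAPs to the TNF receptor, changed little. It stood at 82.1, 74.7 and 78.8 CPM with vector, 89.1, 80.8 and 84.3 CPM with p65 WT, and 88.9, 85.3 and 83.9 CPM with p65 2CS. The p65 WT libraries overlapped vector, whereas the p65 2CS libraries lay above it. The log2 fold was 0.13 ± 0.04 with p65 2CS (edgeR adjusted p = 0.0251) and 0.11 ± 0.05 with p65 WT (edgeR adjusted p = 0.0617). The p65 2CS call was lost without vector replicate 2 or 3 or p65 2CS replicate 7 or 8, and p65 WT passed the threshold in 5 of 15 other settings, among them without vector replicate 1 or p65 WT replicate 5.

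TRAF7 (ENSG00000131653, chromosome 16, 2155698 to 2178129, plus strand), a RING protein with WD40 repeats in place of the TRAF domain of the family, stood at 158, 164 and 162 CPM with vector, 165, 174 and 179 CPM with p65 WT, and 166, 166 and 177 CPM with p65 2CS. Both p65 groups lay just above vector and overlapped each other. The log2 fold with p65 WT was 0.10 ± 0.03 (edgeR adjusted p = 0.0266), a call lost without vector replicate 1 or 3, without p65 WT replicate 5 or 6, or when only library totals set the scale. With p65 2CS it was 0.07 ± 0.03 (edgeR adjusted p = 0.13). TRAF7 overlaps CASKIN1 on the other strand, which shares 20.1% of the 50-base windows of TRAF7 transcripts and had 400 to 757 counts per library, and the strand setting of the counting is not given in the sources used here.

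TRAF5 (ENSG00000082512, chromosome 1, 211326615 to 211374946, plus strand), a close relative of TRAF2 and TRAF3, gave no call. It stood at 13.4, 14.6 and 15.2 CPM with vector, 13.3, 13.4 and 13.5 CPM with p65 WT, and 13.8, 13.5 and 13.9 CPM with p65 2CS. Its vector libraries overlapped those of both p65 groups. The log2 folds against vector were -0.10 ± 0.09 with p65 WT and -0.07 ± 0.09 with p65 2CS (edgeR adjusted p = 0.446 and 0.63).

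XIAP (ENSG00000101966, chromosome X, 123859724 to 123913979, plus strand) stood at 54.2, 53.4 and 54.7 CPM with vector, 51.3, 61.1 and 51.0 CPM with p65 WT, and 57.2, 61.2 and 61.9 CPM with p65 2CS. The p65 2CS libraries lay above vector, while p65 WT replicate 5 lay above vector and replicates 4 and 6 below it. The log2 fold was 0.01 ± 0.06 with p65 WT (edgeR adjusted p = 0.923), 0.15 ± 0.06 with p65 2CS (edgeR adjusted p = 0.036) and 0.14 ± 0.06 between the forms (edgeR adjusted p = 0.0458). The call against vector was lost without vector replicate 1, 2 or 3 or p65 2CS replicate 8 or 9 and with library totals alone, and the call between the forms in 8 of 15 other settings, among them without p65 WT replicate 4 or 6 and p65 2CS replicate 8 or 9.

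With p65 2CS in place of vector, 6 of the 10 genes rose, against 12.1% of all genes tested, and 1 fell, against 11.4%. BIRC3 (2.84-fold), TRAF1 (1.95-fold) and BIRC2 (1.51-fold) led, followed by TRAF3 (1.26-fold), XIAP (1.11-fold) and TRAF2 (1.1-fold), while TRAF4 fell. Without p65 2CS replicate 8, the deepest library, the 7 calls became 4, each of them a rise. In the direct comparison of the forms TRAF1, BIRC3 and BIRC2 were lower with p65 2CS, 3 of 10 against 17.9% of all genes, and TRAF4, TRAF6 and XIAP were higher, 3 of 10 against 13.4%. TRAF2, TRAF3, TRAF5 and TRAF7 did not pass the threshold between the forms. The median log2 fold of the 10 genes was 0.10 with p65 WT, 0.15 with p65 2CS and 0.03 between the forms, against -0.02, -0.0018 and 0.0030 over all genes tested.

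**Figure D2:**
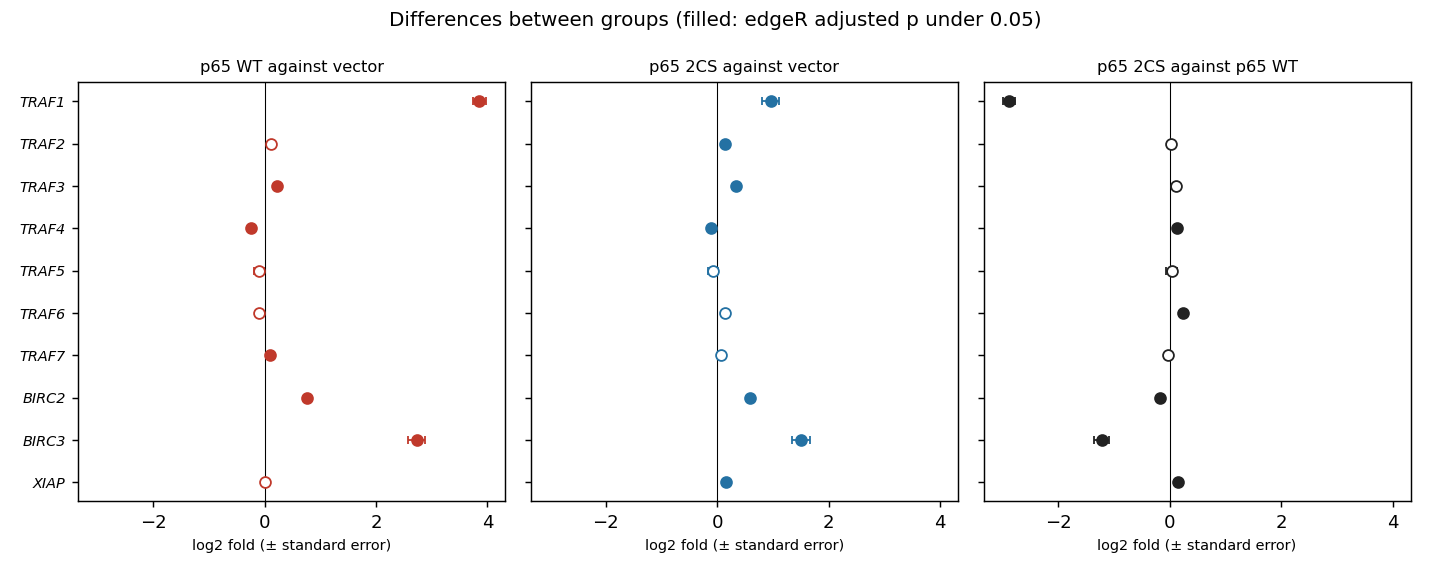
Log2 fold and its standard error (x axis, the same scale in each panel) of the 10 genes in the 3 comparisons, with filled points where the edgeR adjusted p was under 0.05. TRAF1, BIRC3 and BIRC2 lie to the right against vector and to the left between the forms, with TRAF1 at 3.85, 0.96 and -2.89.

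Divided by gene length, the 10 genes spanned a wide range of levels. With vector the order of CPM per kb was TRAF7 (36.0 ± 0.669), TRAF4 (30.4 ± 0.468), TRAF2 (21.4 ± 1.01), BIRC2 (8.24 ± 0.387), TRAF3 (7.76 ± 0.164), TRAF6 (6.33 ± 0.174), XIAP (5.99 ± 0.0737), TRAF5 (1.60 ± 0.0991), TRAF1 (0.379 ± 0.0413) and BIRC3 (0.303 ± 0.0199). No neighbours in that order overlapped over the 3 vector libraries. With p65 WT the order began in the same way, and TRAF1 reached 5.49 ± 0.316 CPM per kb, where its libraries overlapped those of TRAF6 (5.92 ± 0.173) and TRAF6 overlapped XIAP (6.04 ± 0.639). BIRC3 at 2.01 ± 0.216 passed TRAF5 at 1.49 ± 0.0126. With p65 2CS, BIRC3 (0.866 ± 0.119) and TRAF1 (0.740 ± 0.110) were last and overlapped each other.

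TRAF1 made up 0.365 ± 0.0408% of all TRAF reads per kb with vector (0.318, 0.389 and 0.387% in the 3 libraries), 5.02 ± 0.179% with p65 WT (5.11, 4.81 and 5.13%) and 0.681 ± 0.0889% with p65 2CS (0.594, 0.678 and 0.772%). The groups did not overlap, and each pair gave an exact two-sided permutation p of 0.1, the smallest that 3 against 3 libraries allow, unaltered by adjustment over the 3 pairs. Per TRAF2 read, the partner in its heteromers, TRAF1 stood at 0.0177 ± 0.00262 in the vector group, 0.237 ± 0.0120 in the p65 WT group and 0.0316 ± 0.00554 in the p65 2CS group, per kb. The summed TRAF level was 104 ± 0.418, 109 ± 2.78 and 108 ± 2.43 CPM per kb in the same order.

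Among the inhibitors, the summed level of BIRC2, BIRC3 and XIAP was 14.5 ± 0.308 CPM per kb in the vector group, 22.1 ± 0.278 in the p65 WT group and 20.0 ± 0.397 in the p65 2CS group. XIAP made up 41.3 ± 1.29%, 27.4 ± 2.72% and 33.4 ± 0.993% of it in the same order. BIRC3 took 3.56 ± 0.374% of the reads per kb of the BIRC2 and BIRC3 pair with vector (3.77, 3.12 and 3.77%), 12.6 ± 1.69% with p65 WT (12.1, 14.5 and 11.2%) and 6.52 ± 0.997% with p65 2CS (7.14, 5.37 and 7.06%). No 2 groups overlapped, with an exact two-sided permutation p of 0.1 for each pair, again the smallest possible. BIRC2 held the larger share of the pair in each of the 9 libraries. The paralogs could be told apart by sequence, since 11 of the 7648 distinct 50-base windows of BIRC3 transcripts also occurred in BIRC2.

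**Figure D3:**
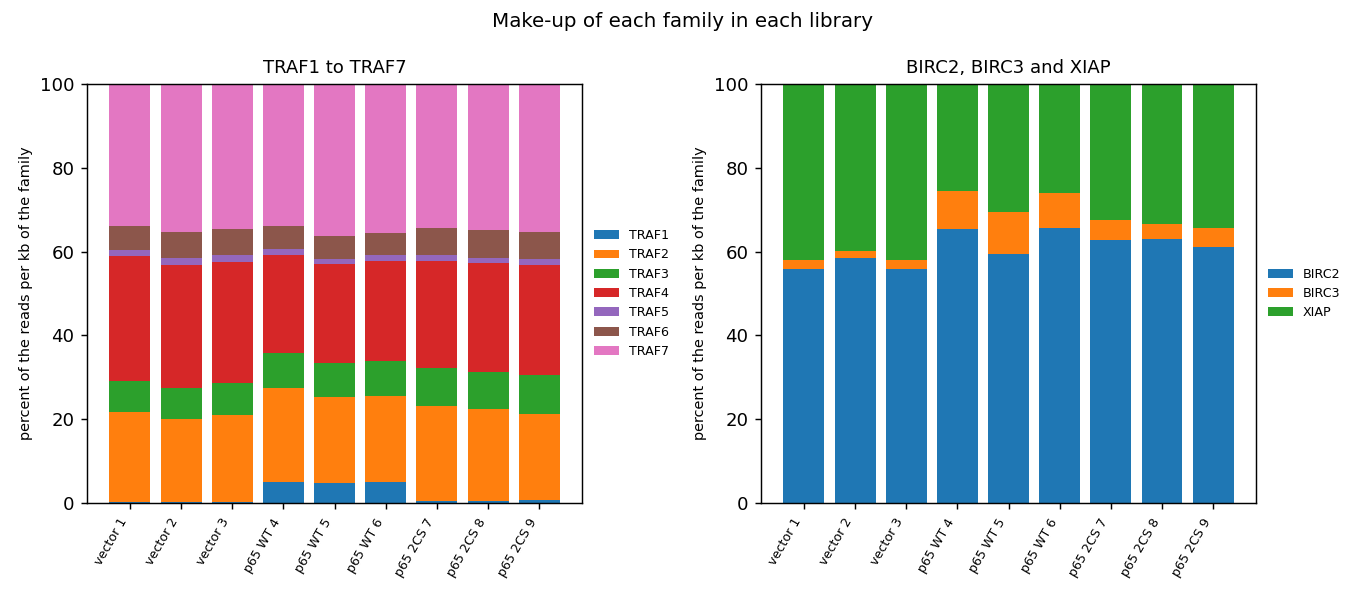
Share (percent, y axis from 0 to 100) of each gene in the reads per kb of its family in each of the 9 libraries, for TRAF1 to TRAF7 (left) and for BIRC2, BIRC3 and XIAP (right). TRAF1 forms a visible band only in the 3 p65 WT libraries, at 4.81 to 5.13%, and the BIRC3 band is widest there.

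The tested genes near TRAF1, BIRC3 and BIRC2, other than the cIAPs themselves, gave no call with p65 WT. Within 100 kb of TRAF1 the tested genes were PHF19, a Polycomb protein, at 40.4 ± 1.58, 38.3 ± 1.82 and 38.7 ± 2.95 CPM in the vector, p65 WT and p65 2CS groups, and C5, a complement gene, at 4.77 ± 0.578, 4.799 ± 1.02 and 6.56 ± 0.400 CPM. PHF19 passed no test, and C5 was higher with p65 2CS than with vector (log2 fold 0.46 ± 0.16, edgeR adjusted p = 0.0277), a call lost without vector replicate 2 or 3 or p65 2CS replicate 8 or 9. C5 was also higher with p65 2CS than with p65 WT (log2 fold 0.46 ± 0.16, edgeR adjusted p = 0.0263). That call was lost without p65 WT replicate 6 or p65 2CS replicate 8 or 9. Around the cIAP pair the tested genes were YAP1, the Hippo pathway coactivator, and TMEM123, a membrane protein. YAP1 stood at 102 ± 3.65, 98.3 ± 2.61 and 104 ± 1.38 CPM and passed no test. TMEM123 stood at 198 ± 5.51, 192 ± 10.0 and 178 ± 4.39 CPM, with a log2 fold of -0.05 ± 0.03 for p65 WT (edgeR adjusted p = 0.319) and -0.16 ± 0.03 for p65 2CS (edgeR adjusted p = 0.000473). Between the forms TMEM123 was lower with p65 2CS (log2 fold -0.11 ± 0.03, edgeR adjusted p = 0.0123). That call was lost in some settings, among them without p65 WT replicate 5 or p65 2CS replicate 7.

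The genes whose pattern over the 9 libraries lay closest to each of these 3 members were sought by the root mean square difference of log2 CPM after centring each gene. For TRAF1 they were NIPAL4, AP000697.1, FOXN4, CYTH4 and ENTPD2, with differences of 0.17 to 0.26. FOXN4, a forkhead factor, stood at 2.25, 33.0 and 4.48 CPM in the vector, p65 WT and p65 2CS groups. For BIRC3 they were CD83, PEX11G, GREM1, NFATC2 and PTX3, with differences of 0.17 to 0.24. CD83, a dendritic cell activation marker, stood at 18.1, 105 and 42.0 CPM, and PTX3, a secreted pattern recognition protein, at 1.80, 12.9 and 4.15 CPM. For BIRC2 they were ZFHX2, IER3, AP5Z1, ELOVL7 and SLC1A3, with differences of 0.06 to 0.09, and IER3, an early response gene, stood at 53.2, 98.9 and 85.6 CPM.

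Of 62 other genes of the pathway, in 6 lists, 54 were tested. With p65 WT 18 rose and 7 fell, with p65 2CS 10 rose and 4 fell, and between the forms 5 were higher and 14 lower with p65 2CS. Of all genes tested 16.4% rose and 12.5% fell with p65 WT, and 12.1% rose and 11.4% fell with p65 2CS. Between the forms 13.4% were higher and 17.9% lower with p65 2CS. With only library totals to set the scale, 17 rose and 12 fell with p65 WT, and 8 were higher and 12 lower between the forms. Without p65 WT replicate 6 the count with p65 WT was 14 rises and 4 falls. Of 12 tested receptors that signal through TRAFs, 7 rose and 1 fell with p65 WT, with a median log2 fold of 0.63. With p65 2CS 3 rose and 1 fell, with a median of 0.14, and between the forms 6 were lower with p65 2CS, with a median of -0.22.

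CD40, which signals through TRAF2, TRAF3 and TRAF6, stood at 0.532 ± 0.211 CPM in the vector group, 192 ± 15.3 in the p65 WT group and 6.03 ± 0.575 in the p65 2CS group, and all 3 comparisons passed the threshold. TNFRSF9 (4-1BB), which binds TRAF1 and TRAF2, stood at 2.42 ± 0.588, 16.7 ± 1.504 and 14.8 ± 1.31 CPM in the same order and rose with both forms, which did not pass the threshold against each other (log2 fold -0.16 ± 0.11, edgeR adjusted p = 0.256). TNFRSF18 (GITR) stood at 0.691 ± 0.260, 4.44 ± 0.516 and 1.02 ± 0.211 CPM, with a rise for p65 WT (edgeR adjusted p = 1.84e-10). TNFRSF1B (TNFR2), a receptor of TNF, had 0 counts over the vector group, 70 over the p65 WT group and 4 over the p65 2CS group, which makes p65 WT at least 27.9-fold higher than the 3 counts that 0 over the vector group allows. TNFRSF4 (OX40) rose from 0.213 ± 0.152 to 0.981 ± 0.303 CPM with p65 WT. TNFRSF4 and TNFRSF8 were lower with p65 2CS than with p65 WT (edgeR adjusted p = 0.0178 and 0.027). Both calls were lost without p65 WT replicate 6 or p65 2CS replicate 7, and that of TNFRSF8, which stood at 0.491 ± 0.457, 0.979 ± 0.495 and 0.352 ± 0.0551 CPM, also without p65 2CS replicate 8 or 9.

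**Figure D4:**
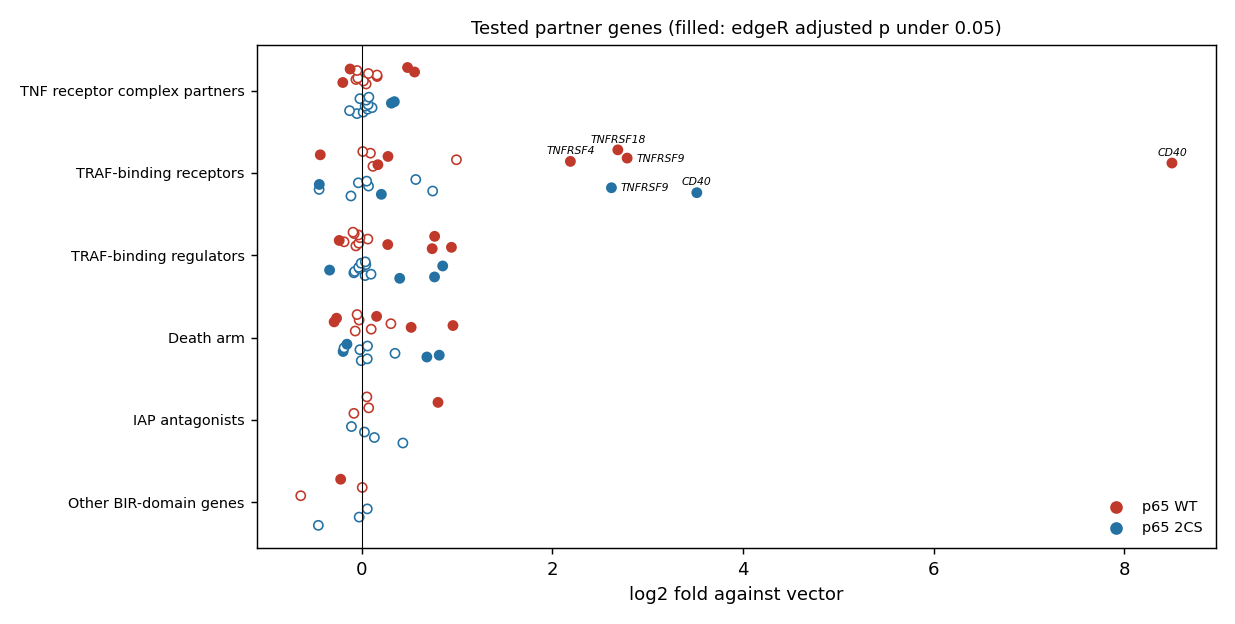
Log2 fold against vector (x axis) of the tested genes of each partner list, for p65 WT (red) and p65 2CS (blue), filled where the edgeR adjusted p was under 0.05; TNFRSF1B is left out because it had no vector reads. CD40 lies at 8.50 with p65 WT and 3.52 with p65 2CS, while TNFRSF9 lies at 2.78 and 2.62.

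Among 12 genes of the complex that forms at the TNF receptor, 3 rose and 2 fell with p65 WT, and 2 rose with p65 2CS. The shares of all genes tested were 16.4% up and 12.5% down with p65 WT, and 12.1% up with p65 2CS. TAB2, a ubiquitin-binding subunit of the TAK1 kinase complex, rose with both forms, from 95.5 ± 0.638 CPM to 140 ± 1.52 (p65 WT) and 121 ± 2.05 (p65 2CS). TAB1, its companion subunit, rose from 54.5 ± 1.05 to 67.6 ± 1.19 CPM with p65 2CS and stood at 57.1 ± 3.25 with p65 WT, where it did not pass the threshold (edgeR adjusted p = 0.334). Median log2 folds of this list were 0.03, 0.05 and 0.0017 in the 3 comparisons.

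Of 13 tested TRAF-binding regulators 4 rose and 1 fell with p65 WT, against 16.4% and 12.5% of all genes tested. With p65 2CS 3 rose and 1 fell, against 12.1% and 11.4%. TIFA, which activates TRAF6, rose with both forms, from 10.4 ± 0.617 CPM to 20.0 ± 0.237 (p65 WT) and 17.8 ± 1.46 (p65 2CS). TANK, a TRAF-binding scaffold, rose from 12.6 ± 0.5005 to 21.1 ± 2.48 and 16.7 ± 0.994 CPM. Between the forms TANK was lower with p65 2CS (log2 fold -0.34 ± 0.09), while TIFA did not pass the threshold (edgeR adjusted p = 0.11). In this list 1 gene was higher and 2 lower between the forms, against 13.4% and 17.9% of all genes tested.

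In the death arm that the inhibitors restrain, 3 of 10 tested genes rose and 2 fell with p65 WT, and 2 rose and 2 fell with p65 2CS. Over all genes tested, 16.4% rose and 12.5% fell with p65 WT, and 12.1% rose and 11.4% fell with p65 2CS. CFLAR (cFLIP), which holds caspase-8 in check, rose with both forms, from 28.6 ± 1.24 CPM to 55.5 ± 4.29 (p65 WT) and 50.1 ± 2.40 (p65 2CS). Of the 4 tested genes of IAP antagonists and their regulators 1 rose with p65 WT, SEPT4, from 2.07 ± 0.131 to 3.59 ± 0.755 CPM, a call lost without p65 WT replicate 6 (edgeR adjusted p = 0.0505). AREL1, a ligase for IAP antagonists, was lower with p65 2CS than with p65 WT (log2 fold -0.16 ± 0.05), a call that ended without p65 2CS replicate 9. Among the 3 tested genes with BIR repeats outside the members, BIRC6, a giant ubiquitin ligase, fell from 129 ± 3.64 to 110 ± 9.99 CPM with p65 WT and stood at 134 ± 0.487 CPM with p65 2CS, while NAIP gave no call.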

How the data were processed

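Poly-A RNA was sequenced from 9 libraries of HEK293A cells, 3 per group. The authors deposited whole-number read counts for each gene. Alignment used HISAT2 2.0.5, per the submitters' processing notes; how reads were counted, with which strand setting and on which build, is not given in the sources used here. All 58735 genes matched GENCODE 29 (GRCh38) in start, end and strand. Library totals of 15989601 to 25068515 counts limit the precision of low genes.

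Tests ran in edgeR 4.0.16 under R 4.3.3: expression filter (18195 genes kept), TMM scaling and the quasi-likelihood F test in 1 fit of all libraries, adjusted over all genes tested. CPM uses TMM-scaled totals, and a count of 0 over a group allows 3 counts, for counting error only. Libraries of a group differed beyond sampling noise (chi-square over degrees of freedom, 1.88 to 2.53). Alternatives were DESeq2 1.42.0, other scalings, no filter, RELA left out, pairwise fits and leaving out each library. DIABLO has 2 rows, of which the one with more reads was used.

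The members and lists were chosen with earlier results of these data known. All 10 members were named, and of each other list the genes called with a log2 fold of at least 1, or else the 2 with the smallest adjusted p. For 1 gene that this rule names, the result is not reported here. Patterns were sought for TRAF1, BIRC3 and members called with a log2 fold of at least 0.5 against vector (log2 CPM with a prior count of 2). Promoters came from RefSeq.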

Additional observations from a re-analysis of the deposited data

How the results depend on the processing

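TRAF1, BIRC3 and BIRC2 kept their direction and their call against vector, for both forms, under all 15 other settings, and TRAF1 and BIRC3 also between the forms. The log2 fold of TRAF1 with p65 WT lay between 3.76 and 3.90, and that of BIRC3 between 2.65 and 2.80. The number of members called was 5 to 7 with p65 WT and 4 to 7 between the forms. With p65 2CS against vector leaving out single libraries gave 4 to 7, with 4 without p65 2CS replicate 8. Member calls that ended under at least 1 setting were those of TRAF7 with p65 WT, of TRAF2, TRAF4 and XIAP with p65 2CS, and of BIRC2 and XIAP between the forms; the cause was not tested.

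With raw reads in place of reads per kb, the BIRC3 share of the cIAP pair differed by 13.5 percentage points for p65 WT against vector, 4.61 for p65 2CS against vector and -8.88 between the forms (9.02, 2.97 and -6.06 per kb). The TRAF1 share differed by 6.20, 0.422 and -5.78 points (4.65, 0.317 and -4.34 per kb), the division by length being the only change. The other pathway genes called with p65 WT against vector numbered 18 to 25 of 54 with single libraries left out, and 15 to 21 between the forms. The other settings were also run for the partner genes named by the rule and the tested neighbours, but not for the cell type markers. Among the genes so run, the calls lost were those of SEPT4 (log2 fold 0.66), TNFRSF4 (-1.19), TNFRSF8 (-0.95), AREL1 (-0.12), TMEM123 (-0.08, between the forms) and C5. No paired analysis was possible because no replicate number is shared between groups.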
